A study of Mus musculus with 78 samples.

Results

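The genes described here are 10 genes that mark or specify the trophoblast: Cdx2, Elf5, Gata3, Gata2, Tfap2a, Tfap2c, Krt7, Krt8, Krt18 and Tead4. They were taken by gene name from the 54446 gene IDs of the RNA-seq tables and by gene ID from the 54435 of the nascent RNA table, and all 10 were found in both. They were read in mouse embryonic stem cells (ESCs) in which the corepressor TRIM28 was removed by a degron. Steady-state RNA was measured by RNA-seq in 30 libraries, nascent RNA by TT-SLAM-seq in 12 libraries, and histone marks, RNA polymerase II and the Mediator subunit MED23 by ChIP-seq in 20 libraries.

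The trophoblast is the outer lineage of the early embryo and builds the placenta, whereas ESCs stand for the inner lineage that forms the embryo proper. In the outer cells the Hippo effector TEAD4, with its coactivator YAP, turns on Cdx2 and Gata3, and a network of CDX2, ELF5, GATA and AP-2 factors then holds the trophoblast stem cell state. OCT4, encoded by Pou5f1, and other pluripotency factors act against this network in the inner cells, and the keratins KRT7, KRT8 and KRT18 form the intermediate filaments of the epithelium that the outer cells make.

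The TRIM28-FKBP line is a V6.5 ESC line, grown from a single colony, in which an FKBP degron tag was inserted at the N-terminus of TRIM28, and the ligand dTAG-13 at 500 nM sends the tagged protein for degradation. Its RNA-seq libraries cover a DMSO control and 4 lengths of dTAG-13 treatment (2 h, 6 h, 24 h, 96 h). Its TT-SLAM-seq libraries cover the control and the treatments up to 24 h, with 3 libraries in every group. In both assays all treatments of this line are compared with the same DMSO group. The labels give no DMSO group for each length of treatment, so time in culture cannot be told apart from dTAG-13. The shREPEATS line adds doxycycline (Dox) inducible short hairpin RNAs against the endogenous retrovirus families IAP, MMERVK10C, MMERVK9C and MMETn to the degron and was sampled in DMSO, in dTAG-13 for 24 h, and in dTAG-13 + Dox, again with 3 libraries each. Groups of this line follow the sample titles, although the treatment text describes a pretreatment with 2 µg/mL Dox for every library of the line. Its libraries were made from total RNA after removal of ribosomal RNA, whereas the other RNA-seq libraries were made from mRNA. Untreated parental V6.5 ESCs, without the tag, and neural progenitor cells (NPCs) in DMSO have 3 RNA-seq libraries each. ESCs were kept in serum with LIF on irradiated feeder fibroblasts. Per the study's methods, ESCs for RNA-seq and TT-SLAM-seq were depleted of feeders before plating. The labels call the libraries separate samples and do not say whether they came from separate cultures, so p-values measure the spread between these samples.

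The ESC libraries carried their defining markers. The summed TPM of 6 ESC markers, Pou5f1, Sox2 and Nanog among them, ran from 4286 to 4683 in the TRIM28-FKBP line in DMSO. It was 2244 to 2591 in the shREPEATS line in DMSO. In NPCs it was 413 to 431, with Sox2 at a mean of 422 TPM, while Pou5f1 and Zfp42 were listed at 0. After 96 h of dTAG-13 in the TRIM28-FKBP line the same sum was 362 to 425. The summed TPM of 16 feeder fibroblast markers was 408 to 421 in DMSO, 353 to 421 at 24 h and 4035 to 4193 at 96 h. In the shREPEATS line it was 1382 to 1465 in DMSO, 2067 to 2266 with dTAG-13 and 1467 to 1506 with dTAG-13 + Dox, and in the parental line 218 to 223. Depth ran from 0.348 to 1.53 times the median library in RNA-seq, lowest in replicate 1 of 24 h dTAG-13 (no read totals were used for RNA-seq). In TT-SLAM-seq the reads behind the scaling ran from 6480546 to 24258878 per library. Trim28 mRNA, which the degron does not target, was at a mean of 624 TPM in DMSO, 372 TPM at 24 h, 192 TPM at 96 h and 1398 TPM in the parental line. In bulk RNA a smaller number of cells of a kind and less RNA per cell cannot be told apart.

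The 3 keratin genes lie on chromosome 15 (mm10 coordinates as deposited). Krt8 (minus strand, chr15:101996698-102004482) and Krt18 (plus strand, chr15:102028180-102032027) are divergent neighbours, and Krt7 (plus strand) is at chr15:101411043-101430313. Of the transcription factor genes, Cdx2 is at chr5:147300805-147307270 (minus strand), Gata3 at chr2:9857078-9890034 (minus strand), Gata2 at chr6:88193891-88207032 (plus strand) and Tead4 at chr6:128224288-128300823 (minus strand). Tfap2a lies at chr13:40715302-40738376 (minus strand), Tfap2c at chr2:172549593-172558622 (plus strand) and Elf5 at chr2:103411688-103450989 (plus strand). Genes overlap Gata3, Tfap2a, Krt7, Krt8 and Tead4 in the annotation, mostly on the opposite strand, so reads at these loci may belong to the neighbour.

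The 250 bases before the start are given below for the 3 keratins, whose RNA differed most between the groups, and for Cdx2 and Gata3, the TEAD4 targets, from 5′ to 3′ on the strand of the gene, as RefSeq has them on GRCm38.p6, whose starts can differ from those of the deposited gene models. Capitals mark matches, on either strand, to 5 short motifs of the factor families among the members: GGAATG for TEAD, AGATAA for GATA, GCCNNNGGC for AP-2, TTTATNG for CDX and CCGGAA for the ETS family of ELF5. The first 3 belong to the keratins and the last 2 to transcription factors, and they lie at chr15:102004343-102004592 (Krt8, minus), chr15:102027966-102028215 (Krt18, plus), chr15:101412153-101412402 (Krt7, plus), chr5:147307250-147307499 (Cdx2, minus) and chr2:9878601-9878850 (Gata3, minus).
Krt8: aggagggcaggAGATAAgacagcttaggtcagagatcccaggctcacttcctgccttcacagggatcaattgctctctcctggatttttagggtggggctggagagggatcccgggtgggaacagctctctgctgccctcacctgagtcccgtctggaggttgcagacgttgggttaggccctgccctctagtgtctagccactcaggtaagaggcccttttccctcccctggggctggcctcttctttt
Krt18: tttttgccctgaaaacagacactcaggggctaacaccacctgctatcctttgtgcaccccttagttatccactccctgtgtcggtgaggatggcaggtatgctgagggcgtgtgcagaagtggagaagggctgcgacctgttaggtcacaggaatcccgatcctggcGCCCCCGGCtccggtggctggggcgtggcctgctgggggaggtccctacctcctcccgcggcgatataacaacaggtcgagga
Krt7: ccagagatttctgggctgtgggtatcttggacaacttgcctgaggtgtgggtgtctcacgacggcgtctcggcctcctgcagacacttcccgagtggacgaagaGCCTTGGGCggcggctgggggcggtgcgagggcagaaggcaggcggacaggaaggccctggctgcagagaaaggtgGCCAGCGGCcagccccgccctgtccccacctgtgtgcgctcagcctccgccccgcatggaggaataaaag
Cdx2: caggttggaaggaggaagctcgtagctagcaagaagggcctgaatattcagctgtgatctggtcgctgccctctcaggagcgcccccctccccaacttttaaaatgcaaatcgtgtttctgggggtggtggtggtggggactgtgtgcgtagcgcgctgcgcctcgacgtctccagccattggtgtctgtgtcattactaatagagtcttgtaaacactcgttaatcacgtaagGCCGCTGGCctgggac
Gata3: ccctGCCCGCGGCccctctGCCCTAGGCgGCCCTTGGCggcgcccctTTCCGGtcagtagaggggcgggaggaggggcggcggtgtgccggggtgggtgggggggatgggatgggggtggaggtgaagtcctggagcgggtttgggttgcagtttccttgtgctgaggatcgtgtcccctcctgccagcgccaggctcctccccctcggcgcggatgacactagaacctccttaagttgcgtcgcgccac
AP-2 letters stood in Krt18 (at base -83 from the start), Krt7 (-146 and -70), Cdx2 (-16) and Gata3 (-246, -231 and -221), a GATA match in Krt8 (-239) and an ETS match in Gata3 (-203). Over 32851 RefSeq promoters of the same kind, which also take 50 bases after the start, 16.6% held the AP-2 letters, 14.7% the TEAD, 11.2% the GATA, 10.9% the CDX and 14.9% the ETS letters. RefSeq promoters were matched for 8 of the 10 genes, all but Tfap2c and Tead4. In the others, TEAD letters stood in Elf5 (-173) and in the second promoter of Gata2 (-120), which also held AP-2 letters (-222). In these 300 bases the content of G and C was 58% in Krt8, 61.3% in Krt18, 66.3% in Krt7, 57.3% in Cdx2 and 67.3% in Gata3, against a median of 52.7% over all promoters, and the number of CpG was 6, 17, 21, 18 and 22 against a median of 7. A match is a run of letters and not a measured binding site.

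Before degradation the trophoblast genes lay far apart in TPM, a scale that is per length and so allows genes to be set side by side. In the TRIM28-FKBP line in DMSO, Krt8 was at 395, 422 and 415 TPM and Krt18, its partner in the keratin filament, at 401, 422 and 407 TPM in the 3 libraries, so the ranges of this pair overlapped. Krt7 followed at 12.2, 13.6 and 14.4 TPM. The keratin pair was therefore well above every trophoblast transcription factor.

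Among these factors Tfap2c, an AP-2 factor of trophoblast and germ cells, was the highest in DMSO at 24, 23.9 and 23 TPM. Tead4 was next at 14.6, 14.7 and 15.3 TPM, above and apart from the GATA factors. Gata2 stood at 4.19, 4.78 and 5.35 TPM and Gata3, which acts beside CDX2 in the outer cells, at 3.34, 4.02 and 3.41 TPM, with no overlap. Tfap2a, the AP-2 factor of trophoblast and surface ectoderm, was at 1.55, 1.94 and 2.4 TPM and Cdx2, a defining factor of the trophectoderm, at 1.04, 1.26 and 1.28 TPM. Elf5, which locks in the trophoblast stem cell fate and is kept shut by DNA methylation in ESCs, was at 0, 0.225 and 0.0481 TPM. Elf5 stayed at or below 0.225 TPM in every one of the 30 libraries and was not tested.

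**Figure D1:**
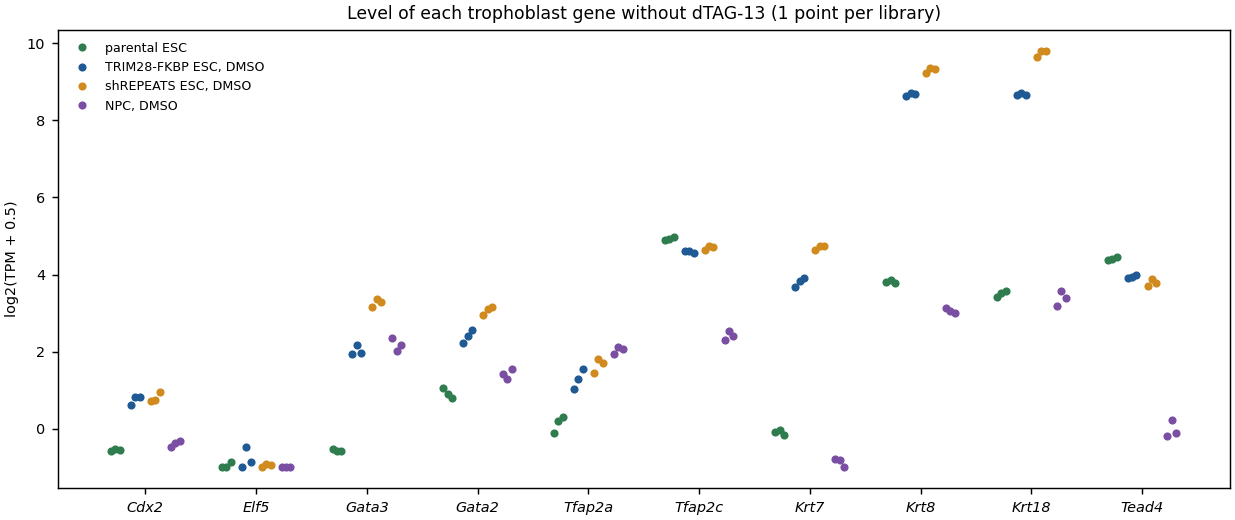
Level of each gene as log2(TPM + 0.5) in the 4 groups without dTAG-13, with 1 point per library (n = 3 libraries a group). Krt8, Krt18 and Krt7 are low in parental ESCs and NPCs and high in the TRIM28-FKBP and shREPEATS lines, whereas Tfap2c and Tead4 are about level in the ESC lines and low in NPCs.

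Which of these genes the tagged line expresses beyond its parent was asked by comparing parental ESCs with the TRIM28-FKBP line in DMSO. The keratins were far lower in the parental line. Krt18 was at 10.1, 10.9 and 11.3 TPM there and at 401 to 422 TPM in the tagged cells (log2 difference, -5.19 ± 0.09 SE; limma, adjusted p = 4.86e-10). Krt8 was at 13.4, 13.9 and 13.2 TPM in the parental line (-4.87 ± 0.04, adjusted p = 8.27e-12) and Krt7 at 0.433, 0.469 and 0.396 TPM (-3.90 ± 0.09, adjusted p = 2.83e-09). No parental library came near the tagged libraries for any of the 3.

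The GATA factors and Cdx2 were also lower in the parental line. Gata3 was at 0.199, 0.17 and 0.164 TPM (-2.59 ± 0.11, adjusted p = 5.27e-08) and Gata2 at 1.58, 1.36 and 1.24 TPM (-1.47 ± 0.11, adjusted p = 3.07e-06). Cdx2 was at 0.171, 0.187 and 0.178 TPM (-1.32 ± 0.09, adjusted p = 1.26e-06) and Tfap2a at 0.426, 0.651 and 0.725 TPM (-1.16 ± 0.15, adjusted p = 9.31e-05). The AP-2 factor shared with ESCs and germ cells and the Hippo effector went the other way by less than the 2-fold limit set for a call. Tfap2c was at 29.2, 29.6 and 31.1 TPM (0.34 ± 0.06, adjusted p = 0.0011) and Tead4 at 20.4, 20.6 and 21.5 TPM (0.47 ± 0.10, adjusted p = 0.0025) in the parental line.

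In all, 7 of the 9 genes tested were called lower in the parental line (adjusted p under 0.05 and over 2-fold), where 9.15% of the 17458 genes tested were called lower. Of these 7, Cdx2 and Krt7 passed the filter of 1 TPM in 3 libraries only through the tagged line, so their direction was fixed by the filter. With any 1 DMSO library left out neither was tested, and 5 members were called. The call of Tfap2a was lost with a pseudocount of 1 (-0.88), with centred libraries (-0.96) and with FPKM (-0.78), and that of Cdx2 with a pseudocount of 1 (-0.89). Of 24 further trophoblast genes 17 were tested, with 10 lower, among them Hand1 (-3.64), a factor of trophoblast giant cells, and Peg10 (-2.68), an imprinted placental gene, and 1 higher. Of 22 genes of epithelial junctions and keratin partners 9 were lower, including Krt19 (-3.08), Dsc2 (-2.77) and Dsp (-2.20), which encode a keratin and desmosome parts. Of 20 genes of the Hippo pathway 6 were lower, with Tead3 at -2.31 and Amot, a binding partner of YAP, at -2.10, while 7 of 11 pluripotency factors were higher, where 2.25% of all genes were called higher, Klf4 (2.88) and Esrrb (2.16) most. The median change was -1.24 over the further trophoblast genes and -0.09 over all genes tested. The lines differ at least in the tag, the clone and DMSO, which cannot be told apart. The paper describes the tagged cells as still pluripotent and close to the parental line in expression profile. Its measure of that likeness was not repeated here.

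NPCs, a cell type of another lineage, put the levels in ESCs into proportion. Krt8 was at 8.33, 7.85 and 7.57 TPM, Krt18 at 8.53, 11.3 and 10 TPM and Krt7 at 0.0788, 0.0653 and 0 TPM, all far under the tagged ESCs (log2 differences of -5.61 ± 0.04, -5.30 ± 0.09 and -4.67 ± 0.09). Tead4 was at 0.37, 0.669 and 0.429 TPM (-3.97 ± 0.10) and Tfap2c at 4.39, 5.32 and 4.78 TPM (-2.18 ± 0.06), so these 2 genes, which differed by under 2-fold between parental and tagged ESCs, were low in NPCs. With Cdx2 (0.22, 0.271 and 0.297 TPM, -1.15 ± 0.09), 6 of 9 genes were called lower in NPCs, where 20.7% of all genes tested were (limma, adjusted p of the 6 at most 7.87e-07). Here too Cdx2 and Krt7 passed the filter only through the tagged line, so their direction was fixed by it. With any 1 DMSO library left out neither was tested, and 4 or 5 members were called, and the call of Cdx2 was lost with a pseudocount of 1 (-0.80).

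The other members were not lower to that extent in NPCs. Gata2 was at 2.16, 1.93 and 2.41 TPM (-0.98 ± 0.11, adjusted p = 1.81e-05, under the 2-fold limit), and was called at -1.06 without replicate 1 of DMSO and at -1.05 without replicate 3 of NPCs. It was also called lower with a pseudocount of 0.1 (-1.10) and with centred libraries (-1.38). Tfap2a, which neural crest and surface ectoderm also use, was at 3.34, 3.87 and 3.69 TPM (0.76 ± 0.15, adjusted p = 0.000773), and Gata3 was at 4.64, 3.58 and 3.98 TPM (0.16 ± 0.11, adjusted p = 0.187). For Gata3 the 95% interval of the difference from DMSO ran from -0.08 to 0.40.

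After 2 h and 6 h of dTAG-13 no trophoblast gene passed both limits in steady-state RNA. At 2 h, 0 of 9 were called by limma, with 2 at an unadjusted p under 0.05, where 0.374% of all genes were called. Gata3 was at 4.87, 4.95 and 5.08 TPM, above all DMSO libraries, with a log2 change of 0.42 ± 0.11 (adjusted p = 0.0235). Cdx2 was at 1.78, 2.14 and 1.43 TPM, likewise above all DMSO libraries, with 0.42 ± 0.15 (adjusted p = 0.0746). The other 7 members lay between -0.17 and 0.15 at 2 h.

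At 6 h, 0 of 9 were called by limma, with 3 at an unadjusted p under 0.05, and 0.965% of all genes were called. Gata2 was at 6.18, 5.88 and 6.5 TPM (0.35 ± 0.08, adjusted p = 0.00524) and Tfap2c at 19.1, 19.3 and 19.6 TPM (-0.28 ± 0.05, adjusted p = 0.00113), both outside the DMSO range. Gata3 was at 3.7, 3.69 and 2.72 TPM, the first 2 within the DMSO range and the last below it (-0.09 ± 0.11, adjusted p = 0.601). Cdx2 was at 1.42, 1.5 and 1.83 TPM (0.30 ± 0.15, adjusted p = 0.146).

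By 24 h Cdx2 had fallen and other members had moved by less than 2-fold in both directions. Cdx2 was at 0.428, 0.284 and 0.21 TPM against 1.04 to 1.28 TPM in DMSO, with no overlap and a log2 change of -1.07 ± 0.15 (adjusted p = 2.02e-05). It was the 1 member of 9 called lower, where 2.01% of all genes were called lower, and none was called higher, where 10.1% were. Without replicate 3 of 24 h Cdx2 was at -0.99, and with a pseudocount of 1 at -0.75, and in neither case was a member called. With FPKM in place of TPM, or among genes with a mean of at least 5 TPM, Cdx2 did not pass the filter. No member was called under these settings, which therefore do not test Cdx2. These levels of Cdx2 are near the pseudocount of 0.5 added before the log, so the log2 change understates the ratio of the TPM.

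Tfap2c was at 13, 12.5 and 13.3 TPM at 24 h, all below DMSO (-0.85 ± 0.05, adjusted p = 6.75e-09), and was called as well (-1.13) when each library was centred on its own median. Krt8 was at 266, 252 and 290 TPM, also below every DMSO library (-0.61 ± 0.06, adjusted p = 4.37e-07), while its partner Krt18, at 381, 346 and 383 TPM, was below DMSO by less (-0.15 ± 0.05, adjusted p = 0.0135). Krt7 was above DMSO at 17.9, 18.3 and 18.3 TPM (0.43 ± 0.07, adjusted p = 0.000103). The keratins thus did not move together at 24 h.

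The remaining factors were near their DMSO levels at 24 h. Tead4 was at 14.6, 15 and 15.1 TPM (0.01 ± 0.06, 95% interval -0.13 to 0.14), Gata3 at 3.12, 4.08 and 4.01 TPM (0.05 ± 0.11, -0.20 to 0.29), Gata2 at 4.51, 3.93 and 4.35 TPM (-0.14 ± 0.08, -0.32 to 0.03) and Tfap2a at 2.2, 2.39 and 2.29 TPM (0.20 ± 0.14, -0.10 to 0.50). The median change of all genes was 0.13 at 24 h. Centring each library on its median shifted all changes by -0.29 at 24 h and -0.28 at 96 h in RNA-seq and by -0.24 at 24 h in TT-SLAM-seq, and by -0.16 in the shREPEATS line with dTAG-13, 0.20 in the parental comparison, -0.40 in NPCs and 0.12 in the comparison of lines. Under it Tead4 at 24 h was at -0.28. In the companion lists at 24 h, 4 of 11 pluripotency factors were lower, led by Klf4 (-1.89), Zfp42 (-1.26) and Pou5f1 (-1.11). None was called higher, but the changes ran from -1.89 to 0.54, and Nanog went from a mean of 136 TPM in DMSO to 199 TPM. Of 18 further trophoblast genes tested, the 1 called was Gcm1 (-1.29), the factor of the syncytial trophoblast, and Tead3 (1.02) was the 1 called of 20 Hippo genes.

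At 96 h 6 of the 9 genes tested were higher than in DMSO, the keratins most. No DMSO group is labelled 96 h, so time in culture cannot be told apart from dTAG-13 here. Krt7 was at 134, 135 and 124 TPM, 9.45-fold its DMSO level, with a log2 change of 3.24 ± 0.07 (adjusted p = 2.23e-14). Krt18 was at 3457, 3493 and 3294 TPM (3.06 ± 0.05, adjusted p = 1.33e-15) and Krt8 at 2883, 2887 and 2757 TPM (2.79 ± 0.06, adjusted p = 1.33e-14). All 96 h libraries were several times above the highest of any earlier time.

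Gata2, Gata3 and Tfap2a rose as well. Gata2 was at 29.1, 29.7 and 29.3 TPM (2.51 ± 0.08, adjusted p = 1.11e-12) and Gata3 at 15.9, 17.1 and 16.9 TPM (2.07 ± 0.11, adjusted p = 3.95e-10). Tfap2a was at 13.2, 12.8 and 13.9 TPM (5.66-fold on the same scale, adjusted p = 4.25e-10). None of these libraries overlapped the DMSO range. The stem cell factor Cdx2 was at 2.16, 2.84 and 2.83 TPM, above DMSO. Its log2 change was under the 2-fold limit (0.87 ± 0.15, adjusted p = 9.09e-05). The pseudocount makes this change understate the ratio of the mean TPM, which was 2.61 at 96 h and 1.19 in DMSO. With a pseudocount of 0.1 the change of Cdx2 was 1.06 (limma, adjusted p = 0.000379) and passed the limit. Elf5 was at 0.217, 0.151 and 0 TPM, within the range of DMSO.

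Tead4 and Tfap2c, the members with a role in ESCs or germ cells as well, were within 2-fold of DMSO at 96 h. Tead4 was at 24.5, 22.4 and 23 TPM (0.63 ± 0.06, adjusted p = 2.09e-07) and Tfap2c at 29.2, 29.6 and 26.5 TPM (0.26 ± 0.05, adjusted p = 0.000362, and -0.02 when libraries were centred). In all, 6 of 9 members were called higher at 96 h, where 20.3% of all genes were, and none lower. The median change over all genes was 0.05.

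**Figure D2:**
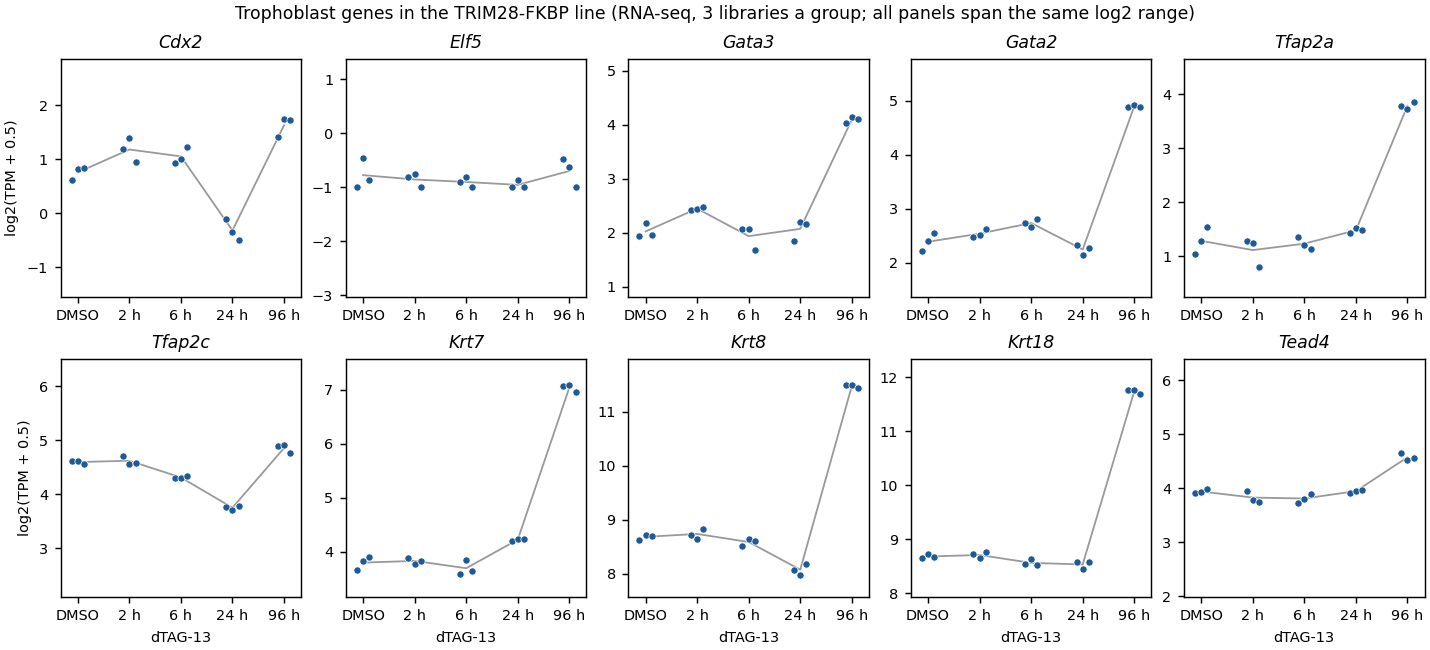
RNA-seq level of each gene in the TRIM28-FKBP line as log2(TPM + 0.5) in DMSO and at 4 times of dTAG-13, with 1 point per library and a line through the group means (n = 3). Krt7, Krt8, Krt18, Gata2, Gata3 and Tfap2a lie well above DMSO at 96 h, and Cdx2, Tfap2c and Krt8 pass through a low point at 24 h.

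Between 24 h and 96 h, 8 of 9 members rose over 2-fold, where 13.7% of all genes were called higher. Krt8 changed by 3.40 ± 0.06 (adjusted p = 4.13e-15) and Krt18 by 3.21 ± 0.05 (adjusted p = 1.77e-15). Cdx2 changed by 1.94 ± 0.15 (adjusted p = 2.04e-08) and Tfap2c by 1.10 ± 0.05 (adjusted p = 8.89e-11), or by 0.95 with FPKM, under the 2-fold limit. Tead4 changed by 0.63 ± 0.06 (adjusted p = 2.6e-07). This comparison shares its 96 h libraries with that of 96 h and DMSO, and its 24 h libraries with that of 24 h and DMSO.

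Genes that work with the members were read from lists. Of 18 further trophoblast genes tested at 96 h, 10 were higher, led by Hand1 (3.05), Dlx3 (2.89), a placental homeobox factor, the X-linked Rhox6 (2.33) and Bmp4 (2.22), with a median of 1.25. Eomes, a factor of trophoblast stem cells, was at -0.83 ± 0.15 (adjusted p = 0.000143, under the 2-fold limit) and is named after its value was seen. The placental hormone genes Prl3d1 and Prl3b1 were listed at 0 in DMSO and at 96 h. Prl2c2, Synb and Tpbpa were also at 0 in every DMSO library, but each had a value above 0 in some library at 96 h. Of 20 Hippo genes 12 were higher with a median of 1.24, among them the YAP targets Ctgf (2.37) and Lats2 (2.31), and Vgll4 (2.44) and Amot (2.27), which bind TEAD and YAP. Of 22 genes of junctions and keratin partners 12 were higher with a median of 1.08, with the desmosome genes Dsc2 (3.19) and Dsp (2.60) and the claudins Cldn3 (2.26) and Cldn4 (2.19).

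Genes of other lineages moved at 96 h as well. Of 14 primitive and parietal endoderm genes tested 9 were higher and 2 lower (Sox17 4.18, Col4a2 2.69), and of 8 surface ectoderm and amnion genes 4 were higher and 1 lower (Wnt6 4.58, Msx2 3.93, Krt17 -2.86). Of 10 paralogs of the members 4 were higher and 1 lower, with Gata6, the endoderm GATA factor, at 2.03 and Krt19 at 1.84. Of 11 pluripotency factors 10 were lower with a median of -2.33, where 12.4% of all genes were called lower, including Esrrb (-3.89), Nr5a2 (-3.55), Pou5f1 (-3.51) and Sox2 (-3.26). Of 8 germ cell genes 4 were lower.

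The feeder fibroblast markers rose too. Of 15 tested 13 were higher at 96 h with a median of 3.11, Col1a1 (21.2-fold) and Col3a1 (20.2-fold), collagen genes, most, and none of the 16 was listed at 0. A mean of at least 1 TPM was reached by 11 of the 16 in DMSO and by 15 at 96 h. Markers that passed the filter only through the 96 h libraries had their direction fixed by it. The part of fibroblasts or other cells in the rise of the members at 96 h was not tested. In parental ESCs 7 of 15 of these markers were higher and 1 lower than in the tagged line, their sum was 218 to 223 TPM, and Krt8 was at 13.2 to 13.9 TPM. The pseudogene Krt8-ps, whose reads may be shared with Krt8, was at a mean of 18.6 TPM in DMSO and 133 TPM at 96 h.

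Nascent RNA was read to ask which of these changes were seen in newly made transcripts. TT-SLAM-seq labels new RNA with 4-thiouridine for minutes and counts reads with T-to-C conversions per gene. On the deposited FPKM 5 members passed the filter of 0.5 FPKM in 3 libraries, and 0 of 5 were called by limma at any time. At 2 h and 6 h 1 member was at an unadjusted p under 0.05, where 0.225% and 0.569% of all genes were called, and at 24 h all 5 were, where 3.40% of all genes were called. Of these 5, Krt7 and Tead4 passed the filter only through treated libraries. Because most members are under 1 FPKM, the reads behind the FPKM were worked out as well, and 9 members with at least 10 reads in 3 libraries were tested with limma voom, an added test chosen after seeing the data. Elf5 had between 0 and 3 reads per library and was not tested, with no read at 24 h.

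In nascent RNA at 24 h Krt7 was called higher with voom, and Krt8 and Krt18 were above DMSO by less than 2-fold. Krt7 was at 0.213, 0.227 and 0.223 FPKM in DMSO and at 0.618, 0.834 and 0.584 FPKM at 24 h, from 30, 55 and 49 reads and from 289, 330 and 73 reads. The voom change was 1.64 ± 0.24 (adjusted p = 4.62e-06), and Krt7 was the 1 member of 9 called higher, where 15.5% of all genes were. On the FPKM scale its change was 0.70 ± 0.11 (adjusted p = 0.0009), and it passed the FPKM filter only through the 24 h libraries.

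Krt18 was at 5.67, 5.32 and 4.45 FPKM in DMSO and at 8.2, 9.85 and 9.26 FPKM at 24 h (FPKM scale, 0.77 ± 0.16, adjusted p = 0.00449; voom, 0.85 ± 0.16, adjusted p = 0.000113). Krt8 was at 2.36, 2.67 and 2.32 FPKM in DMSO and at 2.91, 3.74 and 3.03 FPKM at 24 h (0.33 ± 0.12, adjusted p = 0.0591; voom, 0.42 ± 0.15, adjusted p = 0.026). The 24 h libraries of both genes were above all DMSO libraries, by less than 2-fold. In steady-state RNA all 24 h libraries of both genes were below DMSO, so the nascent and the steady-state values lay on opposite sides of it. Nascent values at 24 h were shifted up as a whole. The median change over all genes was 0.21 on the FPKM scale, and 84.8% of the voom calls were higher. Centring shifted the nascent changes by -0.24, and the part of this shift in the contrast was not tested.

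Cdx2 in nascent RNA was above DMSO at 2 h and below it at 24 h, from few reads. It was at 0.0848, 0.0982 and 0.0814 FPKM in DMSO (4, 8 and 6 reads) and at 0.218, 0.196 and 0.241 FPKM at 2 h (23, 18 and 22 reads). At 24 h it was at 0.0446, 0.0377 and 0.0239 FPKM (7, 5 and 1 reads). These ranges did not overlap, and the voom changes were 1.18 ± 0.41 at 2 h (adjusted p = 0.0667) and -1.13 ± 0.54 at 24 h (adjusted p = 0.0873), neither of which passed the test. Cdx2 reached 10 reads in 3 libraries only through the 2 h group and 1 library of 6 h. The RNA-seq values of Cdx2 lay on the same sides of DMSO at these times.

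With voom at 2 h, 0 of 9 members were called, with 3 at an unadjusted p under 0.05, where 2.76% of all genes were called. Tead4 was at 0.455, 0.488 and 0.371 FPKM in DMSO and at 0.664, 0.681 and 0.61 FPKM at 2 h (voom, 0.55 ± 0.14, adjusted p = 0.0175), and it was at 0.677, 0.685 and 0.562 FPKM at 24 h (0.59 ± 0.14, adjusted p = 0.00162). Its nascent RNA was thus above every DMSO library at both times, by less than 2-fold, while its steady-state RNA at 24 h was at 0.01. On the FPKM scale its nascent change at 24 h was 0.28 ± 0.08, near the median of 0.21 over all genes. Tead4 was under 0.5 FPKM in every DMSO library and passed the FPKM filter only through treated libraries, so the filter favoured a rise on that scale. Tfap2c was at 0.926, 1.04 and 0.913 FPKM in DMSO and at 0.634, 0.626 and 0.495 FPKM at 24 h (-0.64 ± 0.19, adjusted p = 0.0074), below in both kinds of RNA. For Gata2, Gata3 and Tfap2a the voom changes at 24 h were between 0.12 and 0.18 with adjusted p of at least 0.671.

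**Figure D3:**
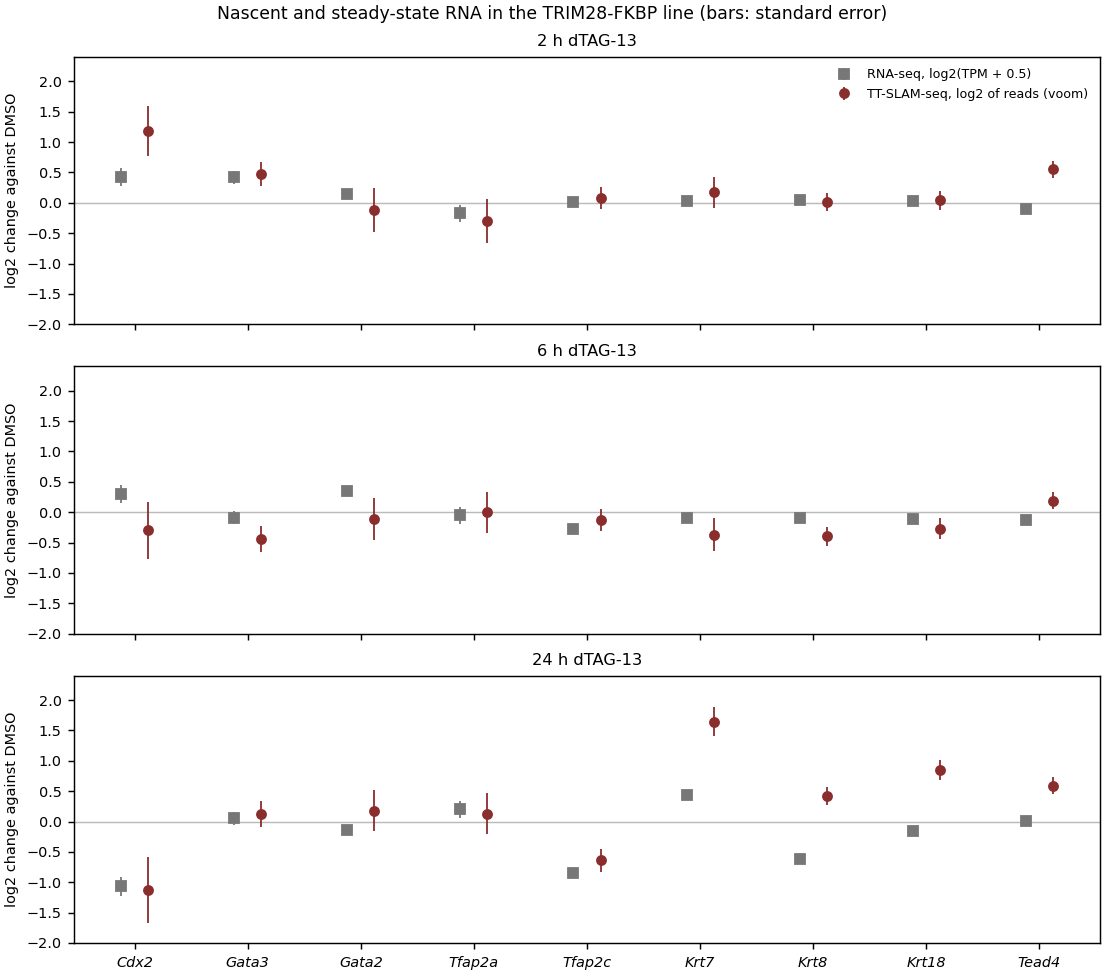
Log2 change against DMSO of steady-state RNA (grey squares, RNA-seq on the TPM + 0.5 scale) and nascent RNA (red circles, TT-SLAM-seq reads with voom) for 9 genes at 2 h, 6 h and 24 h of dTAG-13, with bars of 1 standard error (n = 3 libraries a group). At 24 h Krt7, Krt8, Krt18 and Tead4 are higher in nascent than in steady-state RNA, while Cdx2 and Tfap2c are below 0 in both.

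Whether the retroviral RNA bears on the trophoblast genes was asked with the shREPEATS line. By the titles no group of it had Dox without dTAG-13, and no line with a control hairpin was sampled. An effect of Dox or of hairpins as such therefore cannot be told apart from loss of retroviral RNA. With dTAG-13 for 24 h, 0 of 9 members were called by limma against DMSO, with 7 at an unadjusted p under 0.05, where 3.82% of all genes were called. The same 7 had an adjusted p under 0.05 at changes under 2-fold. Tfap2a was at 2.22, 3.01 and 2.73 TPM in DMSO, at 5.82, 4.79 and 6.22 TPM with dTAG-13 and at 2.22, 3.06 and 2.68 TPM with dTAG-13 + Dox. The dTAG-13 libraries stood above both other groups, which overlapped, with a log2 change of 0.96 ± 0.13 against DMSO (adjusted p = 9.75e-05), -0.96 ± 0.13 on adding Dox (adjusted p = 0.00013) and 0.00 ± 0.13 between dTAG-13 + Dox and DMSO. Without replicate 2 of the dTAG-13 or of the DMSO libraries the change against DMSO was 1.06 or 1.04 and passed the 2-fold limit, and without replicate 2 of dTAG-13 or of dTAG-13 + Dox the change on adding Dox was -1.06 or -1.05.

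Tfap2c made the reverse move. It was at 24.3, 26.1 and 25.8 TPM in DMSO, at 12.6, 13.1 and 13.4 TPM with dTAG-13 (-0.94 ± 0.05, adjusted p = 7.27e-08, and called at -1.10 when libraries were centred) and at 22.5, 21.6 and 22.5 TPM with dTAG-13 + Dox (0.75 ± 0.05 against dTAG-13, adjusted p = 5.23e-07). With Dox it was still below every DMSO library, at -0.19 ± 0.05 (unadjusted p = 0.003 and adjusted p = 0.2).

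The keratins stood higher with dTAG-13 and near DMSO with Dox. Krt8 was at 595, 660 and 648 TPM in DMSO, at 964, 910 and 945 TPM with dTAG-13 and at 647, 668 and 663 TPM with dTAG-13 + Dox. Krt18 was at 793, 891 and 887 TPM, at 1343, 1262 and 1349 TPM and at 881, 896 and 891 TPM in the same groups. Krt7 was at 24.4, 26.4 and 26.2 TPM, at 34.5, 34.2 and 36.7 TPM and at 26.6, 27.6 and 28 TPM. In each of the 3 the dTAG-13 libraries were apart from both other groups.

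The log2 changes of the keratins against DMSO were 0.57 ± 0.05 for Krt8 (adjusted p = 1.93e-06), 0.62 ± 0.05 for Krt18 (adjusted p = 1.95e-06) and 0.45 ± 0.05 for Krt7 (adjusted p = 1.98e-05). On adding Dox they were -0.51 ± 0.05, -0.57 ± 0.05 and -0.35 ± 0.05 (adjusted p of 5.38e-06, 4.98e-06 and 0.000161). In that comparison 0 of 9 members were called by limma, with 7 at an unadjusted p under 0.05, where 3.45% of all genes were called. Between dTAG-13 + Dox and DMSO 0 of 9 members were called, with 1 at an unadjusted p under 0.05, where 0.0186% of all genes were called, and the 95% intervals ran from -0.05 to 0.16 for Krt8, -0.06 to 0.17 for Krt18 and -0.02 to 0.21 for Krt7. These 3 comparisons share their libraries by pairs. The feeder marker sum was also highest with dTAG-13, and its part in the keratin values was not tested.

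Of the other factors in this line, Gata2 was at 7.28, 8.07 and 8.48 TPM in DMSO and at 9.64, 9.2 and 9.76 TPM with dTAG-13 (0.25 ± 0.07, adjusted p = 0.00905). Tead4 was at 12.5, 14.4 and 13.3 TPM and at 16, 14.6 and 15.9 TPM (0.21 ± 0.07, adjusted p = 0.0231). Gata3 was at 8.43, 9.72 and 9.3 TPM and at 9.45, 7.79 and 9.7 TPM (-0.03 ± 0.09, 95% interval -0.22 to 0.16). Cdx2, at 1.15, 1.16 and 1.45 TPM in DMSO, was spread from 0.674 to 1.38 TPM with dTAG-13 (-0.17 ± 0.18, 95% interval -0.57 to 0.24) and was at 0.882, 0.675 and 0.984 TPM with dTAG-13 + Dox (-0.38 ± 0.18 against DMSO, adjusted p = 0.29). Neither Gata3 nor Cdx2 was separated from DMSO by the test.

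Of the companion lists, the pluripotency factors moved most in this line, with 9 of 11 lower with dTAG-13, where 1.44% of all genes were called lower, and 9 of 11 higher on adding Dox, where 1.49% were. Nr5a2 changed by -2.16 and 2.17 and Klf4 by -1.91 and 1.96. None of 15 further trophoblast genes was called with dTAG-13 by limma, with 11 at an unadjusted p under 0.05 and a median of 0.05, and none of 20 Hippo genes, with 18 at an unadjusted p under 0.05 and a median of 0.44. Of the junction genes the 1 called was Cldn3 (1.01).

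**Figure D4:**
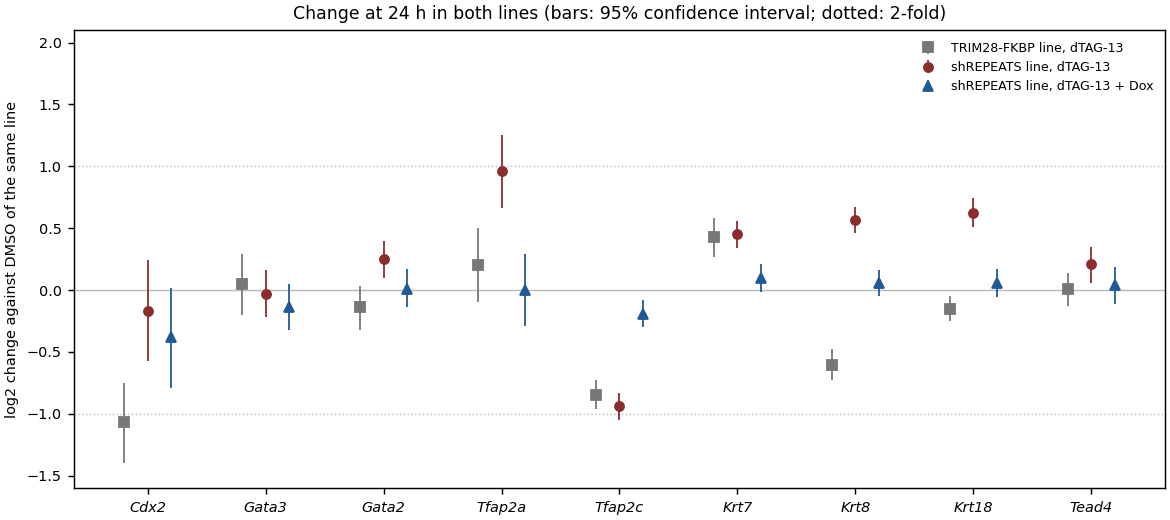
Log2 change at 24 h against DMSO of the same line for 9 genes, on the TPM + 0.5 scale, with bars of the 95% confidence interval and dotted lines at 2-fold (n = 3 libraries a group). Krt8 is below 0 in the TRIM28-FKBP line and above 0 in the shREPEATS line with dTAG-13, Tfap2c is at -0.85 and -0.94, and the values with dTAG-13 + Dox lie nearer to 0 for the keratins, Tfap2a and Tfap2c.

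The effect of 24 h of dTAG-13 was then compared between the lines as an interaction. Krt8 changed by -0.61 in the TRIM28-FKBP line and by 0.57 in the shREPEATS line, a difference of 1.18 ± 0.08 (adjusted p = 1e-06). It was the 1 member of 9 called, where 2.11% of all genes had a higher effect in the shREPEATS line. Krt18 (-0.15 and 0.62) differed by 0.77 ± 0.08 (adjusted p = 1.2e-05), Cdx2 (-1.07 and -0.17) by 0.91 ± 0.26 (adjusted p = 0.0101) and Tfap2a (0.20 and 0.96) by 0.76 ± 0.20 (adjusted p = 0.00683). For Krt7 (0.43 and 0.45) the difference was 0.02 with a 95% interval of -0.17 to 0.21, and for Tfap2c -0.09 with -0.25 to 0.06.

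Without replicate 1 of 24 h in the TRIM28-FKBP line or replicate 3 of dTAG-13 in the shREPEATS line, Cdx2 was called beside Krt8. The lines differ in the hairpins, the Dox pretreatment of the treatment text and the library kind, which cannot be told apart from a difference in response. In DMSO the shREPEATS line already held more Krt8 and Krt18 (634 ± 34.2 and 857 ± 55.1 TPM, SD, n = 3) than the TRIM28-FKBP line (410 ± 14 and 410 ± 10.9 TPM), with no test across the library kinds.

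Over the 10 groups of RNA-seq Krt8 was ordered from 96 h of dTAG-13 (2842 ± 73.9 TPM, SD, n = 3) through the shREPEATS line with dTAG-13 (940 ± 27.3 TPM), with dTAG-13 + Dox (659 ± 11.3 TPM) and in DMSO (634 ± 34.2 TPM), whose ranges overlap, to the TRIM28-FKBP line at 2 h (426 ± 27.5 TPM), in DMSO (410 ± 14 TPM) and at 6 h (384 ± 19 TPM). In these last 3 neighbouring groups overlap. At the low end stood 24 h (269 ± 19.1 TPM), parental ESCs (13.5 ± 0.363 TPM) and NPCs (7.92 ± 0.384 TPM), each apart from its neighbours. The order sets library kinds side by side and is a description.

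ChIP-seq peaks were read at the gene starts in DMSO and after 24 h. Starts are the outer ends of the deposited gene models, and for Gata3, Tfap2a and Krt7 the RefSeq start lies outside the 1 kb window. Only the keratin pair had a peak of RNA polymerase II (Pol2) within 1 kb of the start, Krt8 and Krt18 in all 4 libraries, while 54.2% and 54.3% of 17922 genes had 1 in DMSO and 30.9% and 28.2% at 24 h. At RefSeq starts, too, Krt8 and Krt18 were the members with a Pol2 peak in every library of a group. At Krt18 the highest Pol2 fold enrichment was 18.6 and 17.6 in the 2 DMSO libraries and 3.54 and 4.25 at 24 h, and at Krt8 it was 9.47 and 9.11 in DMSO and 8.85 and 9.84 at 24 h. The median over genes with a peak, taken on every 20th gene, was 8.54 and 8.25 in DMSO and 5.45 and 5.19 at 24 h. The values at Krt18 were therefore above the median in DMSO and below it at 24 h, and those at Krt8 above it at both.

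MED23, a part of the Mediator complex that joins enhancers to Pol2, had a peak at 8 of the 10 gene starts in both DMSO libraries, all but Elf5 and Krt7, where 73.9% of all genes had 1. At 24 h the count was 4 in replicate 1 (Cdx2, Krt8, Krt18 and Tead4) and 5 in replicate 2, with Tfap2a added, where 25% and 22.5% of genes had 1. At RefSeq starts these 5 members had a peak in both libraries of 24 h. The highest enrichment at Krt18 was 83.8 and 89.6 in DMSO and 3.45 and 3.65 at 24 h, and at Krt8 25 and 31 and then 11.6 and 13.4. At Cdx2 it was 19.3 and 19.2 in DMSO and 6.45 and 4.74 at 24 h, and at Tead4 18.3 and 20.5 and then 4.7 and 4.52. The median over genes with a peak was 8.21 and 7.77 in DMSO and 4.22 and 4.37 at 24 h. The highest peak overlapping the window of Krt18 thus went from about 10 times the median to just under it. With the peak midpoint required within the window, 6 members had a MED23 peak in both DMSO libraries, Krt18 and Cdx2 not among them. At 24 h both of these genes kept theirs. The values in DMSO and at 24 h may therefore come from peaks centred at different places.

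H3K27Ac, a mark of active promoters and enhancers, was at Krt8, Krt18 and Tead4 in all 3 DMSO libraries and at Tfap2c and Krt7 in replicate 2 as well, where 63.4% to 66.1% of genes had a peak. At 24 h Krt8 and Krt18 had a peak in all 3 libraries and Tead4 in replicate 2, where 43.4%, 67.5% and 44.5% of genes had 1. Krt18 was at 11.8, 12.4 and 9.59 in DMSO and at 5.1, 6.5 and 1.63 at 24 h, with no overlap, and Krt8 at 6.44, 8.73 and 13.6 and then at 8.3, 13 and 2.98, with overlap. By peak midpoint neither gene had a peak in every DMSO library, whereas both did at 24 h, so these values may come from peaks centred at different places. H3K9me3, the mark that TRIM28 brings to retroviral DNA, was at no member in every library of a group. The 1 peak was at Tfap2a in replicate 1 of DMSO (2.62), where 5.11% of genes had 1.

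**Figure D5:**
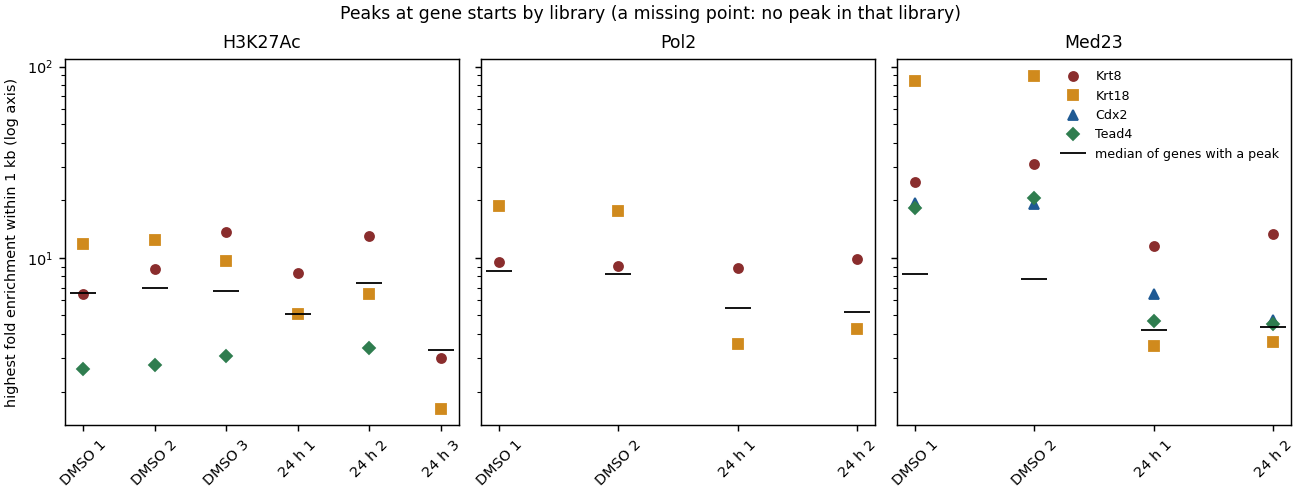
Highest fold enrichment of a peak that overlaps 1 kb to each side of the gene start, wherever it is centred, on a log axis, by library, for H3K27Ac (3 + 3 libraries), Pol2 (2 + 2) and MED23 (2 + 2), with a dash at the median of genes with a peak. Krt18 lies above the dash in DMSO for all 3 targets and below it at 24 h for Pol2 and MED23, while Krt8 stays above it at 24 h in both.

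Numbers of peaks of H3K27Ac, Pol2 and MED23 over the whole genome were lower at 24 h in all but replicate 2 of H3K27Ac, where they were about level. The numbers went from 63045 and 58925 to 15335 and 14551 for MED23 and from 19853 and 19194 to 8182 and 7689 for Pol2, and for H3K27Ac from 88050, 117475 and 96407 to 30259, 117348 and 45662. Each library was called on its own and groups of 2 or 3 cannot reach an exact permutation p of 0.05, so no test was made, and the part of the depth of peak calling in the values at Krt18 was not tested.

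The likeness of patterns over the 15 libraries of the TRIM28-FKBP line was described by Pearson's r of log2(TPM + 0.5), with no test. The 3 libraries of 96 h lie above the other 12 for the 6 members called higher then. Krt8 and Krt18 were alike at 0.99, Tfap2a and Krt7 at 0.99, and Gata2 with Krt8 and with Krt18 at 0.98. Cdx2 and Tfap2c, with the low point at 24 h, were alike at 0.89 and were further from Krt7 (0.46 each). Among the 17921 other genes the nearest to Krt8 were Perp, Anxa1 and Myo1c (0.999 each) and the nearest to Krt18 Marcksl1 (0.999), Jup and Cd151 (0.998). Nearest to Cdx2 were Brms1 (0.966), Hexim1 (0.960) and Slc35e1 (0.959), and to Tfap2c Pdgfc (0.989), Psmd4 (0.981) and Psmc2 (0.976).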

How the data were processed

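The authors deposited 1 StringTie table per RNA-seq library, made per the labels with cutadapt 2.4, STAR 2.7.5a and StringTie 2.0.6 on mm10, with TPM and FPKM per gene, scaled by the authors for length and depth, and with a mean coverage that served only to compare depth. For TT-SLAM-seq the authors deposited FPKM of reads with T-to-C conversions per gene, made with SLAM-DUNK and htseq-count and with no spike-in named. For ChIP-seq the authors deposited peaks called per library with a fold enrichment and a -log10 q value each. Hi-C and embryo single-cell data were not analysed here.

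Gene IDs listed more than once in an RNA-seq table (6 to 13 per table) were summed. Genes with at least 1 TPM, or 0.5 FPKM, in at least 3 libraries of a fit were compared with limma 3.58.1 (lmFit, eBayes with trend; R 4.3.3) on log2(value + 0.5), with Benjamini-Hochberg adjustment over all genes tested. Calls needed an adjusted p under 0.05 and a change over 2-fold. The 15 libraries of the TRIM28-FKBP line, the 9 of the shREPEATS line, and parental, DMSO and NPC libraries were fitted apart, and the lines were compared by an interaction. FPKM of TT-SLAM-seq were turned back into reads from the gene span: 97.8% to 98.7% of values of up to 20 reads lay within 0.1 of a whole number. The scripts were tested on simulated data. Peaks were counted where they overlapped, by at least 1 bp, 1 kb to each side of the gene start. Named genes were all members, up to 4 called genes of largest change per list, Trim28, and the 3 genes most like each member. Members and lists were chosen with earlier results of these data known. Alternatives were other pseudocounts and filters, FPKM, centring, voom, a replicate block, leaving out each library, and other peak limits.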

Additional observations from a re-analysis of the deposited data

Results flagged for a closer look

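The change at 24 h of dTAG-13 differed between the shREPEATS line and the TRIM28-FKBP line for 5 members by a test of the difference itself (limma, interaction of line and treatment, adjusted p under 0.05). The difference, as the shREPEATS change minus the TRIM28-FKBP change on the log2 scale, was 1.18 for Krt8 (adjusted p = 1e-06), where all 3 dTAG-13 libraries were below DMSO in the TRIM28-FKBP line and all 3 above it in the shREPEATS line. It was 0.77 for Krt18 (adjusted p = 1.2e-05), 0.91 for Cdx2 (adjusted p = 0.0101), 0.76 for Tfap2a (adjusted p = 0.00683) and 0.39 for Gata2 (adjusted p = 0.0227). Of these, the difference of Krt8 passed the 2-fold limit. Line and library kind cannot be told apart.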

How the results depend on the processing

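Of the counts of members called and of members with a peak, 136 were within 1.5 times the reported count under the other settings and 18 were not. At 24 h of TT-SLAM-seq the count rose from 0 to 1 with a pseudocount of 0.1, with voom on the recovered reads and with voom on genes with at least 10 reads (chosen after seeing the data), the gene being Krt7 each time (1.27, 1.64 and 1.64). At 24 h of RNA-seq it was 1 and became 0 with a pseudocount of 1 and 2 with centred libraries. It was also 0 with a mean of at least 5 TPM and with FPKM, where Cdx2, the gene called, was not tested. In the shREPEATS line with dTAG-13 it went from 0 to 1 with a pseudocount of 0.1 (Tfap2a, 1.05) and with centring (Tfap2c, -1.10), and on adding Dox from 0 to 1 with a pseudocount of 0.1 (Tfap2a, -1.05). The parental count fell from 7 to 2 with a mean of at least 5 TPM, where only 4 members were tested, and the count of the comparison of lines rose from 1 to 2 with a pseudocount of 0.1 (Cdx2, 1.46) and with centring (Cdx2, 1.03). Centring turned Tead4 at 24 h to -0.28 and Tfap2c at 96 h to -0.02, and the causes were not tested. Promoters with a peak in every library went for H3K27Ac in DMSO from 3 to 1 by peak midpoint, at 24 h from 2 to 0 among the top 10000 peaks and to 1 at a -log10 q of at least 5, for Pol2 at 24 h from 2 to 1 at that limit, and for H3K9me3 in DMSO from 0 to 1 with a window of 2.5 kb.

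Leaving out each library in turn gave counts of 0 to 1 at 24 h of RNA-seq, 0 to 1 in the shREPEATS line with dTAG-13, 0 to 1 on adding Dox, 5 to 7 for the parental line, 4 to 7 for NPCs and 1 to 2 for the comparison of lines, and 6 to 6 at 96 h, 8 to 8 between 96 h and 24 h and 0 to 0 elsewhere. A replicate block changed no count (6 at 96 h, 1 at 24 h). The numbers did not pair the libraries, since in the TRIM28-FKBP line 1 of 30 pairs with the same number had a correlation of deviations over 0.1 (-0.06 to 0.12) and in TT-SLAM-seq 3 of 18 (-0.16 to 0.18).

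The number of all genes called moved over 1.5 times in these cases, in the order as reported and then under the alternative. At 24 h it was 454 in TT-SLAM-seq and 1102 with a pseudocount of 0.1, 241 with 1, 60 with a mean of at least 5 FPKM, 1451 with voom and 3475 with voom from 10 reads. In RNA-seq at 24 h it was 2179 and 985 with a mean of at least 5 TPM and 1263 with FPKM, at 96 h 5862 and 3552 with that mean, and between 96 h and 24 h 5411 and 2963. At 2 h it was 67 and 111 (pseudocount 0.1), 31 (mean of 5) and 40 (FPKM), and at 6 h 173 and 313, 58 and 71, with 89 at a pseudocount of 1. In TT-SLAM-seq at 2 h it was 30 and 72 (pseudocount 0.1), 19 (no filter), 9 (mean of 5), 9 (only the groups compared), 100 and 526 (voom), with 20 at a pseudocount of 1, and at 6 h 76 and 138, 46, 10, 51, 160 and 374, with 45. With a mean of 5 and with FPKM the shREPEATS line had 617 and 263 or 377, adding Dox 558 and 237 or 348, the parental line 1991 and 944 or 1145, and the comparison of lines 1540 and 594 or 916, while NPCs had 8130 and 4759 with that mean. Between dTAG-13 + Dox and DMSO it was 3 and between 1 and 6. Centring moved the higher share of calls from 83.5% to 49.1% at 24 h, from 62% to 44.6% at 96 h, from 62.4% to 41.1% in the shREPEATS line, from 73.3% to 36.9% in TT-SLAM-seq at 24 h and from 65.8% to 54.4% at 6 h, from 80.3% to 67.6% in RNA-seq at 6 h, from 43.2% to 53.8% on adding Dox, from 33.3% to 50% between dTAG-13 + Dox and DMSO, from 19.7% to 35% for the parental line, from 55.6% to 40.2% for NPCs and from 24.2% to 38.5% for the comparison of lines. Depth limits Cdx2 and Elf5 in nascent RNA most, with 1 to 23 and 0 to 3 reads per library.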
